A study of Mus musculus with 6 samples.

Results

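The proteasome genes of G1E-ER-GATA-1 cells were compared between Foxo3 siRNA and nontargeting siRNA on 6 one-colour Agilent mouse arrays, 3 per siRNA. Genes were taken by symbol, as every non-control probe whose gene name begins with Psma, Psmb, Psmc, Psmd, Psme, Psmf or Psmg and a digit. This gave 62 probes of 49 genes, out of 34741 gene names on the array. Of these, 48 encode proteasome subunits, activators, an inhibitor or assembly factors. The remaining one, Psmc3ip, acts in meiotic recombination and matches by its symbol alone, so it is kept out of the counts of proteasome genes below.

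G1E-ER-GATA-1 is a mouse erythroid precursor line without endogenous GATA-1. Its GATA-1 is fused to an estrogen receptor domain that binds hormone, and estradiol therefore starts red cell maturation. The 3 samples of the Foxo3 siRNA group received Foxo3-specific siRNA by nucleofection at 0 h and again at 24 h, estradiol at 24 h, and were harvested at 48 h. The 3 samples of the nontargeting group received nontargeting siRNA on the same schedule and the same estradiol, so every sample had 24 h of GATA-1 activation and none lacked it. Total RNA (0.1 µg) was labelled with Cy3. Separate cultures are not stated for the replicates. The p-values therefore speak only of the spread among these 6 samples, which may be technical.

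The proteasome is the barrel-shaped protease that degrades ubiquitin-tagged proteins. Its core stacks rings of alpha subunits, which gate the barrel, and rings of beta subunits, which hold the catalytic sites. The regulatory cap has an ATPase base that unfolds substrates and a lid that removes ubiquitin, while activators can dock on the core in place of the cap, and dedicated chaperones assemble the parts and leave. Maturing red cells use the ubiquitin-proteasome system to clear proteins they no longer need, and in muscle FOXO3 is known to induce ubiquitin ligases that feed the proteasome.

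Signals are given on a scaled log2 scale, which is the log2 spot signal minus the 75th percentile of its array. A fold change is Foxo3 siRNA over nontargeting siRNA on that scale. A gene was called when limma's two-sided test, with Benjamini-Hochberg adjustment over 19214 tested genes, gave an adjusted p under 0.05. The arrays had between 20343 and 37532 non-control spots well above background, and Foxo3 siRNA replicate 3 had surrogate values in 50.2% of its spots, where the others had them in 16.7% to 29.3%. The Foxo3 probe designed on the RefSeq mRNA gave a log2 fold change of −2.42 (SE 0.337, limma adjusted p = 0.00512 over probes), while the other Foxo3 probe gave 0.26 (adjusted p = 0.242). All 9 erythroid markers were well above background on all 6 arrays. Their summed level, in multiples of the array's 75th percentile, was 3387 to 4576 with Foxo3 siRNA and 4932 to 5431 with nontargeting siRNA, a sum carried mostly by Hba-a1, Hbb-b1 and Alas2. Of the 9 markers, 4 had positive and 5 negative fold changes. The transferrin receptor Tfrc rose (0.61, adjusted p = 0.0106) and the heme enzyme Alas2 fell by 0.40 (adjusted p = 0.0492). The part of these markers in the results below was not tested.

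Most measured proteasome genes had a higher mean signal with Foxo3 siRNA, and a minority of them passed the test. Of the 45 proteasome genes that could be tested, 13 rose, 2 fell and 30 were not called. Their median log2 fold change was 0.23 and 39 of the 45 values were positive. The largest rises were those of Psmb7, a catalytic core subunit, and of Psmg1, an assembly chaperone, at 2.00-fold and 1.87-fold. The falls were those of Psme4, an activator, and Psmd11, a lid subunit.

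Those counts stand against a wide background. Over all 19214 tested genes, 13.8% were called higher and 13.8% lower, and the median log2 fold change was −0.15. The share of proteasome genes called higher was 28.9%. All 45 were well above background on all 6 arrays, and among the 13493 tested genes with that property 18.6% were called higher and 12.8% lower in the same fit. When only genes above background on all 6 arrays were tested, 19 of the 45 rose and 3 fell, beside 23.0% higher and 18.7% lower over all genes tested that way, whose median was −0.00055. The median of the proteasome genes exceeded that of all tested genes by 0.38 in the first fit and by 0.23 in this one. In bulk RNA, fewer cells of a type and less RNA per cell cannot be told apart.

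The values of the 2 groups did not overlap for 30 genes that were higher and 3 that were lower with Foxo3 siRNA, while 12 overlapped. Over all tested genes such separation was seen for 23.0% in the higher and 28.0% in the lower direction, and over those above background on all 6 arrays for 31.0% and 25.3%. Another 9 genes had an unadjusted limma p under 0.05 but missed the adjusted threshold. In the authors' deposited table, 2 of the 45 passed an adjusted p of 0.05, both higher, beside 3.09% of all tested genes called higher there and 1.42% lower.

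**Figure D1:**
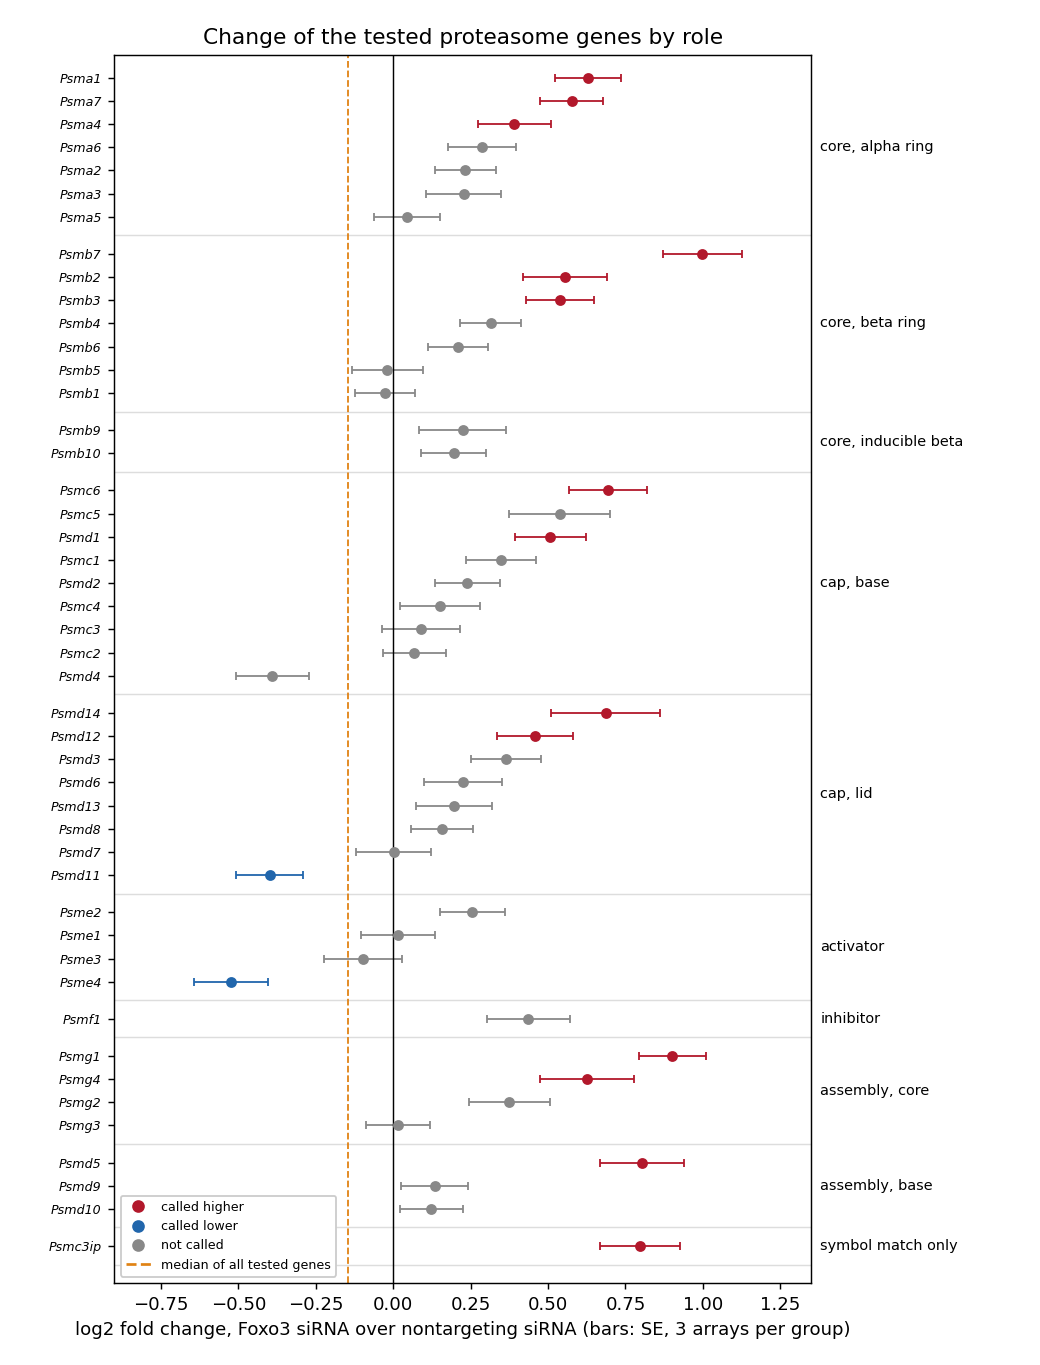
Log2 fold change (horizontal axis, Foxo3 siRNA over nontargeting siRNA) of each tested gene, grouped by role. Points are limma estimates with SE from 3 arrays per group, coloured by call, and the dashed line is the median of all tested genes, −0.15. The assembly factors and core include the highest points, Psmb7 at 1.00 and Psmg1 at 0.90, and Psme4 at −0.52 is the lowest.

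By class, the core had 6 of 16 tested genes called higher and 0 lower, with a median log2 fold change of 0.26. The cap had 4 of 17 called higher and 1 lower, with a median of 0.23. The 4 activators had 0 called higher and 1 lower, with a median of −0.04. The 7 assembly factors had 3 called higher and 0 lower, with a median of 0.38. The shares called higher were 37.5% in the core, 23.5% in the cap and 42.9% in the assembly factors. Among all tested genes well above background on all 6 arrays, 18.6% were called higher and 12.8% lower in the same fit. The share of the cap is near that background. These are counts and medians of small groups, and no difference between classes was tested.

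In the alpha ring, 3 of 7 tested genes rose, Psma1, Psma7 and Psma4. The other 4 were not called, and all 7 values were positive. Psma1 had scaled log2 signals of 4.84, 4.91 and 4.96 with Foxo3 siRNA, against 4.17, 4.31 and 4.34 with nontargeting siRNA. Every Foxo3 siRNA array lay above every nontargeting array, and the fold change was 0.63 (SE 0.106, limma adjusted p = 0.00848, 1.55-fold).

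Psma7 had 6.66, 6.61 and 6.61 with Foxo3 siRNA, against 5.96, 6.14 and 6.06 with nontargeting siRNA, again without overlap (0.58, SE 0.102, adjusted p = 0.0102). Psma4 had 3.45, 3.54 and 3.50 with Foxo3 siRNA, against 2.97, 3.08 and 3.26 with nontargeting siRNA. The groups were apart, but its adjusted p of 0.0493 (0.39, SE 0.117) lay next to the threshold and its call was lost whichever of the 6 arrays was left out, with fold changes of 0.33 to 0.42. Over single probes, of which 12.3% were called higher and 13.1% lower, its 2 probes gave 0.39 (adjusted p = 0.0552) and 0.40 (adjusted p = 0.0424).

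Psma6, Psma2 and Psma3 gave 0.29, 0.23 and 0.23, with adjusted p of 0.0949 to 0.184 and groups that did not overlap. Psma5 gave 0.05, and its groups overlapped. Psma8, the testis form of an alpha subunit, was well above background on 0 of 6 arrays and has no value.

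In the beta ring, 3 of 7 genes rose, and Psmb7 had the largest fold change of the 45 tested genes. Psmb7 carries the trypsin-like activity, Psmb5 the chymotrypsin-like activity and Psmb6 the caspase-like activity. Psmb7 had scaled log2 signals of 5.13, 5.13 and 5.34 with Foxo3 siRNA, against 4.03, 4.28 and 4.30 with nontargeting siRNA. All 3 Foxo3 siRNA arrays lay far above the nontargeting arrays, and the fold change was 1.00 (SE 0.127, 95% interval 0.69 to 1.30, limma adjusted p = 0.00358), or 2.00-fold. In the authors' deposited table it was 1.05 (adjusted p = 0.0373).

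Psmb5 was not called. It had 7.33, 7.33 and 7.50 with Foxo3 siRNA, against 7.31, 7.38 and 7.53 with nontargeting siRNA. The groups overlapped, and the fold change of −0.02 (SE 0.115, adjusted p = 0.911) has a 95% interval of −0.29 to 0.26. Its other probe gave −0.01. Psmb6 had 6.51, 6.45 and 6.42 with Foxo3 siRNA, against 6.21, 6.27 and 6.28 with nontargeting siRNA. Its groups did not overlap, but 0.21 (SE 0.0975, adjusted p = 0.142) was not called.

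The change of Psmb7 relative to Psmb5 was also taken within each array, where scaling cancels. It was 1.02 on the log2 scale, and relative to Psmb6 it was 0.79. In both cases the groups did not overlap. With 3 arrays per group the exact two-sided permutation p was 0.1, the smallest the design allows, in each of 6 such pairs, which were chosen with their values known (adjusted 0.1).

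The value of Psmb7 rests on 1 probe, so its sequence is printed. On mouse build mm9 its 60 bases are placed on the minus strand of chr2:38468966-38489385, a stretch of 20420 bases, so the probe crosses an intron and reads spliced RNA. No part of the sequence is marked with capitals.
Psmb7: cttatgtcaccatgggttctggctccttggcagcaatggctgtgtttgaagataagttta

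Among the remaining ring members, Psmb2 gave 0.56 (SE 0.135, adjusted p = 0.0279) and Psmb3 gave 0.54 (SE 0.109, adjusted p = 0.0156), and both were called. Psmb2 had 2.88, 2.93 and 2.91 with Foxo3 siRNA, against 2.10, 2.46 and 2.48 with nontargeting siRNA, the first nontargeting array being the lowest. Without nontargeting replicate 1 its fold change was 0.43, and its call was lost when Foxo3 siRNA replicate 1, 2 or 3 or nontargeting replicate 2 was left out (adjusted p up to 0.0827). Psmb3 lost its call without Foxo3 siRNA replicate 3 or nontargeting replicate 2 (adjusted p up to 0.0639). Psmb4 gave 0.32 (adjusted p = 0.0553) and Psmb1 gave −0.03 (adjusted p = 0.845).

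The inducible beta subunits, which replace the 3 catalytic ones in the immunoproteasome, were not called. Psmb8, the counterpart of Psmb5, was well above background on 0 of 6 arrays. Psmb9, the counterpart of Psmb6, had −0.90, −1.25 and −1.32 with Foxo3 siRNA, against −1.33, −1.44 and −1.38 with nontargeting siRNA. The groups were barely apart, with Foxo3 siRNA replicate 1 the highest, and the fold change was 0.23 (SE 0.140, adjusted p = 0.245).

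Psmb10, the counterpart of Psmb7, had 2.85, 2.89 and 2.92 with Foxo3 siRNA, against 2.58, 2.76 and 2.73 with nontargeting siRNA. Its groups were apart but the fold change was 0.20 (SE 0.104, adjusted p = 0.186). Psmb11, the thymus form, was well above background on 2 of 3 arrays in each group and did not pass the filter. The Psmb8 probe and the kept Psmb9 probe start 18.6 kb from each other on chromosome 17.

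The probes of Psmb5 and Psmb8 are printed to show how far apart an array reading of a constitutive subunit and of its inducible counterpart lie in sequence. Capitals mark the bases that are the same in their best ungapped alignment, 31 of 50 overlapping bases, or 62%. The Psmb5 probe is the other of its 2 probes (mm9, chr14:55233161-55233220, minus strand), and the Psmb8 probe is at chr17:34337771-34337830, plus strand. Whether any member probe binds RNA of a paralogue or pseudogene was not tested.
Psmb5: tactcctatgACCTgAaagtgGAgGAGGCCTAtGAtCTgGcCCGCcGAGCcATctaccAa
Psmb8: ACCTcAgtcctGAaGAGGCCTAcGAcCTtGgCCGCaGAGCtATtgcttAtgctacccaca

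**Figure D2:**
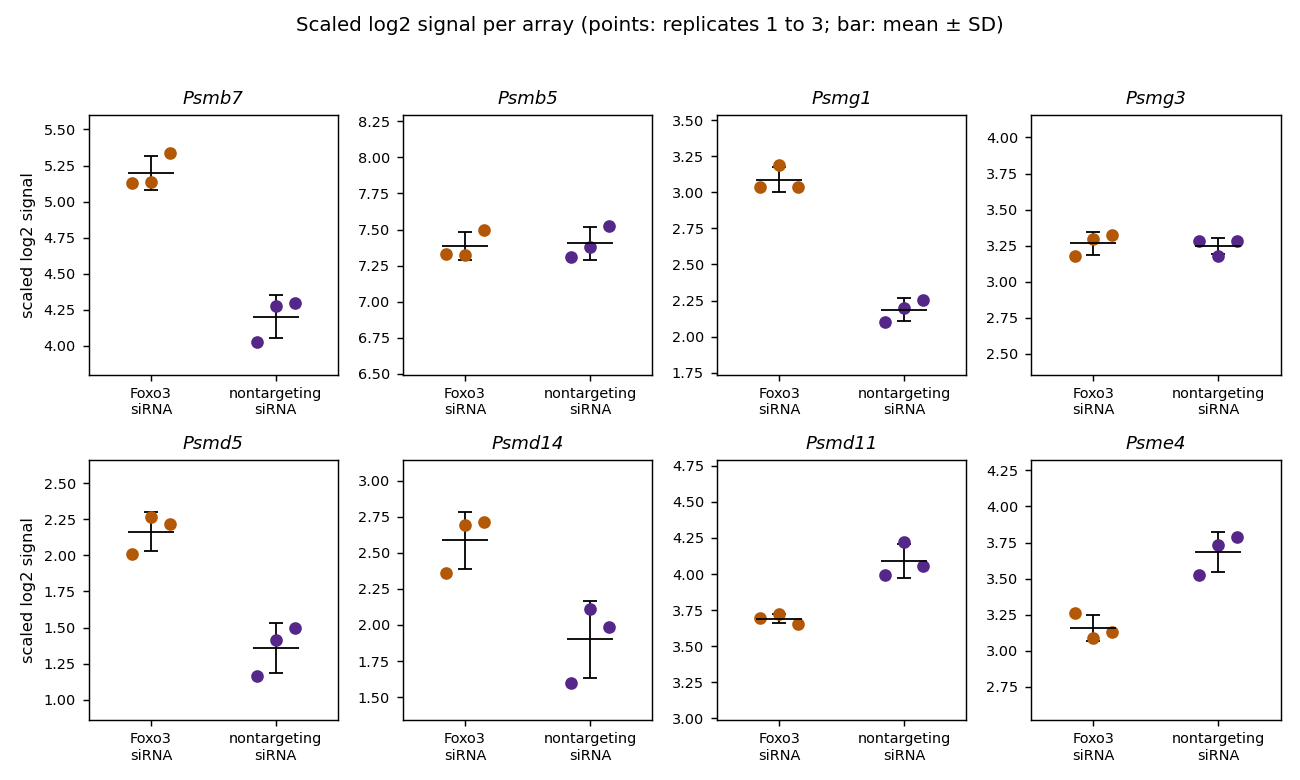
Scaled log2 signal (vertical axis) of 8 genes on the 3 Foxo3 siRNA arrays (left in each panel) and the 3 nontargeting arrays (right), with mean ± SD. Each panel spans the same number of log2 units but has its own origin, so heights cannot be set against each other between panels. Psmb7, Psmg1, Psmd5 and Psmd14 lie higher and Psmd11 and Psme4 lower with Foxo3 siRNA without overlap, while Psmb5 and Psmg3 overlap.

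In the base of the cap, 2 of 9 genes rose (22.2%), near the 18.6% of all tested genes above background on all 6 arrays. Psmc6, one of the 6 ATPases, had 4.22, 4.31 and 4.39 with Foxo3 siRNA, against 3.43, 3.77 and 3.64 with nontargeting siRNA. The groups were well apart, and the fold change was 0.69 (SE 0.126, limma adjusted p = 0.0110, 1.62-fold). Psmd1, a large scaffold of the base, had 5.98, 6.21 and 6.10 with Foxo3 siRNA, against 5.50, 5.59 and 5.68 with nontargeting siRNA. Its groups were also apart (0.51, SE 0.115, adjusted p = 0.0226), but the call was lost without Foxo3 siRNA replicate 2 or 3 or nontargeting replicate 1 or 2 (adjusted p up to 0.0864).

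The other ATPases did not pass. Psmc5 came closest, at 0.54 (SE 0.162, adjusted p = 0.0511), and it was called in 5 of the 17 alternative fits. Psmc1 gave 0.35 (adjusted p = 0.0627), and by single probes its 2 probes gave 0.35 (adjusted p = 0.0700) and 0.42 (adjusted p = 0.0454). Psmc2, Psmc3 and Psmc4 gave 0.07 to 0.15 with overlapping groups. Psmd2, the second large scaffold, gave 0.24 (adjusted p = 0.126).

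Psmd4, a ubiquitin receptor of the cap, was the base gene with a negative value. It had 8.05, 7.76 and 7.87 with Foxo3 siRNA, against 8.21, 8.33 and 8.32 with nontargeting siRNA. Every Foxo3 siRNA array was below every nontargeting array, and −0.39 (SE 0.118, adjusted p = 0.0515) missed the threshold by little. It was called lower in 4 of the 17 alternative fits.

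In the lid, 2 of 8 genes rose and 1 fell. Both counts are near the shares of all tested genes above background on all 6 arrays, 18.6% higher and 12.8% lower. Psmd14, the metalloprotease that cuts ubiquitin from substrates, had 2.36, 2.69 and 2.71 with Foxo3 siRNA, against 1.60, 2.11 and 1.99 with nontargeting siRNA. The groups did not overlap, though replicate 1 was the lowest in each (0.69, SE 0.177, limma adjusted p = 0.0333). Its call held in 1 of the 6 fits without 1 array, that without Foxo3 siRNA replicate 1, and the adjusted p reached 0.104 in the others.

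Psmd7, the catalytically inactive partner that pairs with Psmd14 in the lid, had 3.19, 3.42 and 3.49 with Foxo3 siRNA, against 3.28, 3.44 and 3.37 with nontargeting siRNA. The groups overlapped, and 0.00 (SE 0.121) had a 95% interval of −0.29 to 0.29. Within arrays, Psmd14 changed by 0.68 relative to Psmd7, with no overlap between groups.

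Psmd12, a scaffold subunit of the lid, gave 0.46 (SE 0.123, adjusted p = 0.0373), but its call was lost without any 1 of the 6 arrays (0.38 to 0.54, adjusted p 0.0531 to 0.107). Its other probe gave 0.35, or an adjusted p of 0.0843 over probes, against 0.0414 for the first. Psmd11, the subunit that clamps lid and core, had 3.70, 3.72 and 3.66 with Foxo3 siRNA, against 3.99, 4.22 and 4.06 with nontargeting siRNA. With no overlap its fold change was −0.40 (SE 0.108, adjusted p = 0.0385), or 1.32-fold lower. This call too was lost without any 1 of the 6 arrays (adjusted p 0.0559 to 0.133), and with median or spike-in scaling the fold change was −0.09 or −0.08.

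The other lid genes were all positive and not called. Psmd3 gave 0.36 (adjusted p = 0.0540), while Psmd6, Psmd13 and Psmd8 gave 0.23, 0.20 and 0.16.

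Of the 4 activators 1 fell and 3 were not called. Psme1 and Psme2 form the interferon-inducible activator ring, Psme3 forms a ring of its own in the nucleus, and Psme4 is a large single-chain activator. Psme4 had 3.26, 3.09 and 3.13 with Foxo3 siRNA, against 3.53, 3.73 and 3.79 with nontargeting siRNA. All Foxo3 siRNA arrays were lower, and the fold change was −0.52 (SE 0.120, limma adjusted p = 0.0231), or 1.44-fold lower.

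The second Psme4 probe (mm9, chr11:30710953-30711012), in another part of the gene, gave −0.70 (SE 0.222, adjusted p = 0.0617 over probes, against 0.0259 for the first). The call was lost without Foxo3 siRNA replicate 2 or 3 or nontargeting replicate 2 or 3 (adjusted p up to 0.0936), and median and spike-in scaling gave −0.22 and −0.20.

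Psme1 had 5.71, 5.53 and 5.86 with Foxo3 siRNA, against 5.66, 5.67 and 5.72 with nontargeting siRNA, and overlapped (0.02, SE 0.120). It was spotted 10 times on each array, with a coefficient of variation of 3.10% to 4.34% between spots. Psme2 gave 0.26 (SE 0.105, adjusted p = 0.108) without overlap, and its second kept probe 0.31. Their probes start 6.10 kb from each other on chromosome 14. Within arrays Psme2 changed by 0.24 relative to Psme1, the groups not overlapping. Psme3 gave −0.10 (adjusted p = 0.557) with overlapping groups.

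Psmf1, which inhibits the core in vitro, had 3.10, 3.20 and 3.27 with Foxo3 siRNA, against 2.56, 2.95 and 2.75 with nontargeting siRNA. The groups were apart, and 0.44 (SE 0.133, adjusted p = 0.0524) was just short of a call.

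Among the assembly factors, 3 of 7 rose, and all 7 values were positive. Psmg1 and Psmg2 form the chaperone dimer on which the alpha ring is built, and Psmg3 and Psmg4 form a second dimer that acts in core assembly. Psmg1 had 3.04, 3.19 and 3.04 with Foxo3 siRNA, against 2.10, 2.20 and 2.26 with nontargeting siRNA. Its groups were far apart, and the fold change was 0.90 (SE 0.107, 95% interval 0.64 to 1.16, limma adjusted p = 0.00294).

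Its second probe, on a neighbouring stretch (mm9, chr16:96201644-96201703), gave 0.94 (adjusted p = 0.00329 over probes), and the authors' deposited table gave 0.93 (adjusted p = 0.0430). Psmg2 had 2.83, 3.07 and 3.16 with Foxo3 siRNA, against 2.56, 2.62 and 2.76 with nontargeting siRNA. The groups were apart but 0.38 (SE 0.130, adjusted p = 0.0740) was not called. Within arrays Psmg1 changed by 0.53 relative to its partner Psmg2, without overlap.

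In the second dimer, Psmg4 had 0.95, 0.98 and 0.62 with Foxo3 siRNA, against 0.20, 0.06 and 0.41 with nontargeting siRNA. The groups were apart (0.63, SE 0.152, adjusted p = 0.0278), but the call was lost without Foxo3 siRNA replicate 1 or 2 or nontargeting replicate 1 or 2 (adjusted p up to 0.103). Psmg3 had 3.18, 3.30 and 3.32 with Foxo3 siRNA, against 3.28, 3.18 and 3.28 with nontargeting siRNA. Those groups overlapped (0.02, SE 0.103, 95% interval −0.23 to 0.27), and within arrays Psmg4 changed by 0.61 relative to Psmg3, with groups apart.

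The chaperones of the base are Psmd5, Psmd9 and Psmd10, which hold pairs of ATPases before the ring closes. Psmd5 had 2.01, 2.27 and 2.22 with Foxo3 siRNA, against 1.17, 1.42 and 1.49 with nontargeting siRNA. All Foxo3 siRNA arrays were clearly higher (0.80, SE 0.136, limma adjusted p = 0.00860, 1.75-fold). Psmd9 gave 0.13 (adjusted p = 0.353) with overlapping groups, and its second probe gave 0.35 without overlap (adjusted p = 0.152 over probes). Psmd10 gave 0.12 (adjusted p = 0.369), and its second probe was an outlier spot on Foxo3 siRNA replicate 2, so that its value of 0.24 leaves that array out. Psmd5 is read by 1 probe (mm9, chr2:34708108-34708167, minus strand), printed for that reason with nothing marked.
Psmd5: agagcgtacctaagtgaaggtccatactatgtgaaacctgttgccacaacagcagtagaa

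Of the 15 calls, 6 held in every fit that left out 1 of the 6 arrays, and these were Psma1, Psma7, Psmb7, Psmc6, Psmg1 and Psmd5. Over all tested genes those fits called 1303 to 2255 higher and 869 to 2298 lower, against 2645 and 2655 with all 6 arrays. The array row on the slide held both groups in row 1 alone, with Foxo3 siRNA replicate 1 and the 3 nontargeting arrays. A fit within row 1 thus rests on a single Foxo3 siRNA array, which is assumed to vary like the others. The row as a block gives the same fold changes, because row 2 held Foxo3 siRNA arrays alone. Psmb7 was at 0.93 and Psmg1 at 0.85. Within row 1, 0 of the 45 passed limma's test and 9 had an unadjusted p under 0.05, while 2.81% of all tested genes were called higher and 2.1% lower. With the block 2 of the 45 were called, Psmb7 and Psmg1, both higher, which is near the share of all tested genes, 5.05% higher and 3.02% lower.

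Scaling sets how the smaller changes read. Against the 75th percentile, scaling to the array median shifted the median of all genes by 0.30, and scaling to 6 spike-in probes shifted it by 0.32. The share of higher among all calls was 49.9% with the 75th percentile, 78.0% with the median and 79.4% with spike-ins. Both scalings shift all genes of an array alike, by an amount that differs between arrays. They thus add 1 constant to every fold change, and the spread within groups can change as well. The proteasome median therefore read 0.54 and 0.56, its distance from the median of all genes is fixed at 0.38, and Psmb1, Psmb5 and Psme3 read positive through that shift alone. Under spike-in scaling limma called 0 of the 45 in either direction (8 at an unadjusted p under 0.05), beside 721 genes higher and 187 lower in the whole table.

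**Figure D3:**
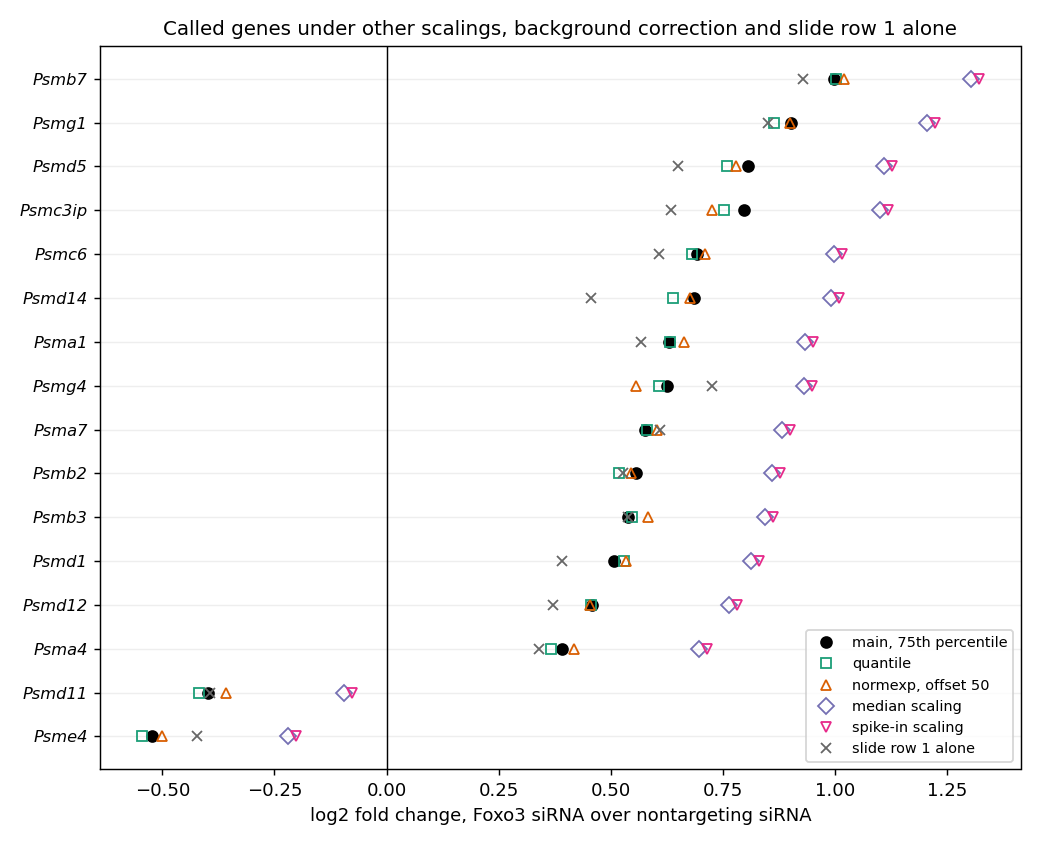
Log2 fold change (horizontal axis, Foxo3 siRNA over nontargeting siRNA) of the 15 called proteasome genes and Psmc3ip under 6 settings, each with its own symbol. Median and spike-in scaling move every gene up by 0.30 and 0.32, Psmd11 and Psme4 then lie at −0.22 to −0.08, and no gene crosses 0.

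Promoters were searched for motifs as a description, and shared regulation of the members was not tested. RefSeq promoter windows (GRCm38.p6, 300 bases, 250 before and 50 after the start) were found for 40 of the 48 genes, but not for Psmb7, and were searched on both strands. The FOXO core TGTTTAC was in 0 of the 40, against 4.05% of 27025 genes. At that share few matches would be found in 40 windows, so the count of 0 decides nothing. The core of the antioxidant response element, TGACNNNGC, to which Nfe2l1 and Nfe2l2 are known to bind, was in 6 (15.0%, against 14.0% of all genes). The 6 were Psmb5, Psmb6, Psmc6, Psmd12, Psme4 and Psmd9.

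CCAAT, the box of factor NF-Y, was in 14 (35.0%, against 41.1%). The motifs do not overlap in these letters, and a match is not a site. The windows of the called genes with the largest rise and fall that had one are printed here to 20 bases past the start. Psmg1 (chr16:95990941-95991210, minus strand) held none of the 3 motifs. Psme4 (chr11:30771525-30771794, plus strand) held the antioxidant core on its reverse strand, in capitals, from 7 bases before the start.
Psmg1: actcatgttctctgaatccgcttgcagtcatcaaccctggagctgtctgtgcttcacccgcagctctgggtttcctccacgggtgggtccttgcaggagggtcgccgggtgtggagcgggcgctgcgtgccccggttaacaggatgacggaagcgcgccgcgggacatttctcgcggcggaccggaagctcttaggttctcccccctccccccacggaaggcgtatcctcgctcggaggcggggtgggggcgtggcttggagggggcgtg
Psme4: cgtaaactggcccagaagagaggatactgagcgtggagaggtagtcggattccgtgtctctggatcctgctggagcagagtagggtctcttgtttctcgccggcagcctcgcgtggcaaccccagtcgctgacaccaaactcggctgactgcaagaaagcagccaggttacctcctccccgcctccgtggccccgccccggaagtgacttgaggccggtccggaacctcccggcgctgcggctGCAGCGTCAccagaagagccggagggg

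Of 38 other genes of the pathway 34 were tested, of which 4 rose (11.8%) and 3 fell, with a median log2 fold change of 0.01. Neither share exceeded the 13.8% of all tested genes called in each direction. Among those that rose, Usp14, a deubiquitinase that docks on the cap, was higher by 0.45 (limma adjusted p = 0.0212), Txnl1, a thioredoxin-like protein bound to the cap, by 0.44 (adjusted p = 0.0347), and Ube3a, a ubiquitin ligase, by 0.50 (adjusted p = 0.0443).

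The ligase Ube4b fell by 0.52 (adjusted p = 0.0212), and Ubb, a polyubiquitin gene, fell by 0.36 (adjusted p = 0.0440). Nfe2l2, a factor of the antioxidant response, fell by 0.64 (SE 0.132, adjusted p = 0.0167). Nfe2l1, which raises proteasome genes when proteasomes are inhibited, gave −0.48 (adjusted p = 0.194) with overlapping groups. Pomp, which helps the beta ring close, gave 0.29 (adjusted p = 0.0974), and Fbxo7, a ligase subunit that binds Psmf1, gave 0.05. The muscle FOXO targets Fbxo32 and Trim63 were well above background on 2 and 0 of the 6 arrays and were not tested.

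The interferon list, whose genes are induced with the immunoproteasome, had 14 of 23 genes tested, 0 higher and 2 lower, with a median of −0.17. The count of lower genes is near the 13.8% of all tested genes called lower, and the median is near theirs, −0.15. The 2 were the class I antigens H2-D1 (−1.17, SE 0.130, adjusted p = 0.00237) and H2-K1 (−0.79, adjusted p = 0.00608), whose probes were not tested for binding each other's RNA. The peptide transporter Tap2 gave −0.48 (adjusted p = 0.0505), and Irf1 gave −0.52 (adjusted p = 0.160) with overlapping groups. Igtp gave 0.41 (adjusted p = 0.0914) and Irf9 −0.25 (adjusted p = 0.134).

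Markers of immune cells were looked at because such cells are rich in immunoproteasomes. Of 5 macrophage and dendritic markers 4 were tested and 0 called. Their summed level was 4.89 to 6.40 with Foxo3 siRNA and 7.40 to 13.5 with nontargeting siRNA. That sum was carried mostly by Csf1r (−0.91, limma adjusted p = 0.0622). Adgre1 and Cd74 were dim and passed the filter through the nontargeting arrays alone. Of 3 lymphocyte markers 1 was tested and 0 called. The sums were 3.19 to 4.15 with Foxo3 siRNA and 4.40 to 5.71 with nontargeting siRNA, almost all from Cd3e. Itgax was well above background on 0 arrays. Of 4 megakaryocyte markers 2 rose, where 13.8% of all tested genes were called higher. The other 2, Pf4 and Gp9, gave −0.15 and −0.54 with overlapping groups and were not called. The sums of the 4 were 37.8 to 67.7 with Foxo3 siRNA and 37.7 to 57.3 with nontargeting siRNA. The part of these cell type markers in the proteasome values was not tested.

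**Figure D4:**
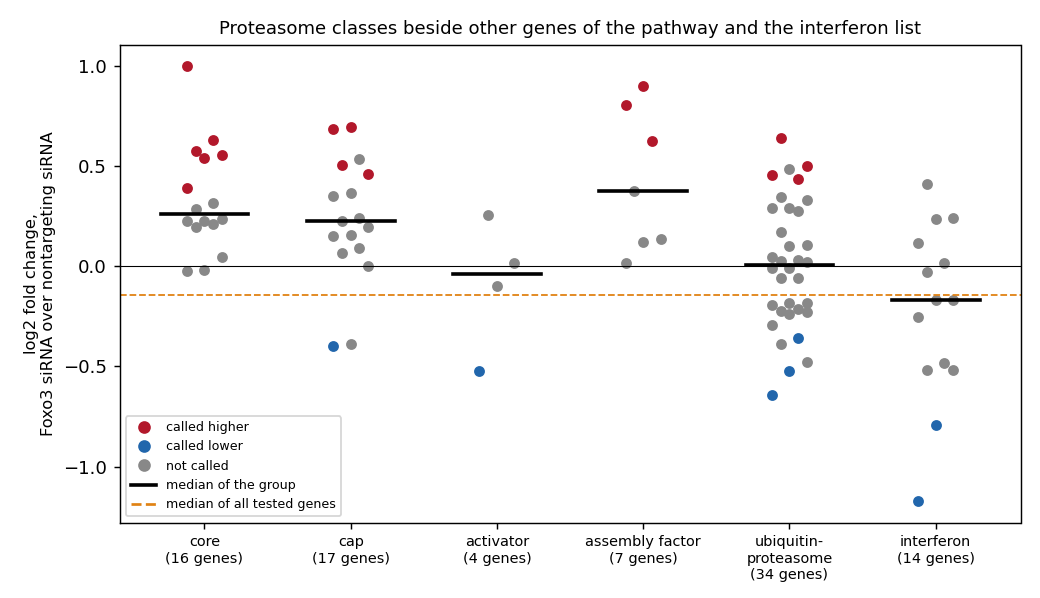
Log2 fold change (vertical axis, Foxo3 siRNA over nontargeting siRNA) of each tested gene in the 4 proteasome classes, the ubiquitin-proteasome list and the interferon list, coloured by call. Black bars are medians, 0.26 for the core, 0.23 for the cap, −0.04 for the activators, 0.38 for the assembly factors, 0.01 and −0.17 for the lists, and the dashed line is the median of all tested genes, −0.15.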

How the data were processed

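RNA from 6 samples, 3 per siRNA, was read on 6 one-colour arrays of 1 slide. Per the file headers, Agilent Feature Extraction 10.7.3.1 made the deposited spot intensity by subtracting background and detrending each array, and it put a surrogate value in place of signals at background. The deposited series file repeats that intensity. Its other columns are the authors' p-value, adjusted p-value and log2 fold change, which came from limma per the submitters' processing notes. The scaling behind those is not given in the sources used here.

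Control spots (3671 of 62976) were left out, outlier spots were set to missing, and log2 signals were scaled to the 75th percentile of each array. Spots of 1 probe were averaged, giving 55681 probes. A probe was kept when all 3 arrays of either group marked it well above background (26992, of them 57 of the 62 probes matched by symbol, Psmc3ip's included), and the brightest stood for its gene. Groups were compared with limma 3.58.1 in R 4.3.3 (lmFit and eBayes, two-sided, no covariates), with adjustment over all 19214 genes, or over all kept probes where a value is given for a single probe. The test was checked on simulated data. It recovered 63 of 100 genes changed by 1 on the log2 scale and 97 of 100 changed by 2, with 8 false calls. No other genes were changed there, while the data gave 2645 higher and 2655 lower calls. The adjustment is stricter when fewer genes change, so these shares do not measure how many changes the real fit recovers. Smaller changes were not simulated, so a gene that was not called may still have changed. No spot was saturated, and the number of arrays limits the precision. Log2 signals correlated at 0.984 to 0.993 within groups and 0.966 to 0.981 across groups.

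Named genes were Foxo3, the 3 largest changes of each class, the catalytic and inducible beta subunits, the activators, inhibitor and assembly factors, genes without a kept probe or with probes of unlike call, and from each list the 6 smallest p-values plus 8 fixed names. Some genes of these lists are not reported here. The other tested members, Ube3a and the cell type markers were named after their values were seen. The members, classes, lists and pairs were chosen with earlier results of these data known. Each printed probe holds at least 1 reading frame without a stop codon, but the coding part is not annotated in the tables used here. Alternatives were other scalings and background corrections, filters, probe choices, slide rows, a replicate block, single arrays left out and the authors' table.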

Additional observations from a re-analysis of the deposited data

How the results depend on the processing

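The main counts were 13 proteasome genes higher and 2 lower with a median of 0.23, 4 higher and 3 lower with 0.01 in the ubiquitin-proteasome list, and 0 higher and 2 lower with −0.17 in the interferon list. Leaving out single arrays gave 6 to 11 higher and 0 to 2 lower proteasome genes (median 0.21 to 0.27) beside 1303 to 2255 higher and 869 to 2298 lower over all genes, 0 to 2 higher and 0 to 3 lower genes of the ubiquitin-proteasome list (−0.06 to 0.03), and 0 higher and 2 to 3 lower interferon genes (−0.25 to −0.12). Spike-in scaling gave 0 calls in either direction in all 3 lists, with medians of 0.56, 0.33 and 0.15. Median scaling gave 14 higher and 0 lower calls with a median of 0.54 for the proteasome. It gave 5 higher, 0 lower and 0.31 for the ubiquitin-proteasome list, and 1 higher, 1 lower and 0.13 for the interferon list. Few lower calls were seen over all genes too under median scaling, 894 beside 3178 higher, against 2655 and 2645 in the main fit. Without a filter on dim probes, 2 proteasome genes were higher and 0 lower, 0 of the ubiquitin-proteasome list were called, and 1 interferon gene was lower (median −0.0278). Over all genes that setting called 793 higher and 382 lower, against 2645 and 2655. With the slide row as a block, 2 proteasome genes were higher and 0 lower, 0 of the ubiquitin-proteasome list were called and 1 interferon gene was lower (median −0.0047), and in row 1 alone the counts were 0, 0, 0 and 1 lower (−0.0047). Both fits rest on 1 Foxo3 siRNA array, and over all genes they called 971 higher and 580 lower with the block and 539 and 404 in row 1. Averaging kept probes left 1 lower call in the ubiquitin-proteasome list. The authors' deposited table gave 2 proteasome genes higher and 0 lower.

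The labels number replicates 1 to 3 in both groups. Deviations from the group means correlated at 0.18, −0.33 and 0.13 for same-numbered samples and at −0.40 to 0.32 for the others. With 3 arrays per group these values cannot decide whether the numbers pair the samples. The replicate block gave 12 proteasome genes higher and 1 lower, and 1 interferon gene higher and 3 lower. Over all tested genes it called 2598 higher and 2889 lower.

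Values near 0 changed sign. With median and spike-in scaling Psmb1 was 0.28 and 0.30, Psmb5 0.29 and 0.30, Psme3 0.21 and 0.22 and Irf9 0.0522 and 0.0702. These signs changed through the constant that both scalings add to every fold change. Psmb5 was 0.00826 with normexp and 0.0480 in the authors' deposited table. In slide row 1, alone or as a block, Psmc2 was −0.0148, Psmc4 −0.0427, Psmd7 −0.17 and Psmg3 −0.0711. Psmd7 was −0.0227 with quantile normalization, −0.0156 with normexp and −0.0502 in the authors' deposited table, and Psmg3 was −0.0057 and −0.0086 with quantile normalization and in that table. With 1 array left out the ranges were −0.0751 to 0.0431 for Psmb5, −0.0016 to 0.15 for Psmc3, −0.0581 to 0.0878 for Psmd7, −0.0623 to 0.10 for Psme1, −0.0165 to 0.0614 for Psmg3 and −0.0339 to 0.14 for Fbxo7. Among genes named singly, 915 results stayed on their side of the threshold, 196 lost and 29 gained a call, and 34 changed sign. The causes of these changes were not tested.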
